A study of Mus musculus with 36 samples.

Results

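The 10 genes described here are those that mark enteroendocrine cells of the gut: the granin genes *Chga* and *Chgb*, the transcription factor genes *Neurog3* and *Neurod1*, and the hormone genes *Gcg*, *Cck*, *Gip*, *Sct*, *Pyy* and *Sst*. They were chosen by name and matched by Ensembl identifier, and are 10 of the 52636 genes listed for every library. Their read counts were examined in 30 of the 36 libraries, each made from the intestine of 1 E18.5 mouse embryo. The other 6 libraries came from mouse embryonic fibroblasts (MEFs), 3 from Mlkl null and 3 from D387A Cflar Mlkl embryos, cultured from younger embryos after removal of the head and internal organs.

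The study asked how caspase-8, the protease that starts death receptor apoptosis, and cFLIP, its partner encoded by *Cflar*, control inflammation and cell death in the intestine. All embryos were of C57BL/6N background and untreated, with 3 embryos per genotype. In a first set, D387A embryos were homozygous for a *Casp8* knock-in that stops caspase-8 from cleaving itself between its catalytic subunits. They were the only ones with intact *Mlkl*, the gene for the executioner of necroptosis. D387A Cflar Mlkl embryos lacked *Cflar* and *Mlkl* as well. Further embryos of that genotype also lacked *Casp1*, the gene for the inflammatory protease caspase-1 (D387A Cflar Mlkl Casp1), or *Casp1* with either *Ifnar1*, which encodes a type I interferon receptor chain (D387A Cflar Mlkl Casp1 Ifnar1), or *Fadd*, the adaptor that recruits caspase-8 (D387A Cflar Mlkl Casp1 Fadd). In a second set, the *Casp8* knock-in C362A removed the catalytic cysteine, on a *Mlkl* null background (C362A Mlkl), with loss of *Casp1* (C362A Mlkl Casp1) or of *Cflar* (C362A Cflar Mlkl). Each set had its own *Mlkl* null embryos, called Mlkl below, so every comparison with Mlkl within a set shares the same 3 control embryos, and the control shared the *Mlkl* deletion with all other genotypes except D387A. The deletions and knock-ins were present in all cells of the embryo, and the *Cflar* alleles of the sets were made with different guide RNAs. The paper also describes a *Mlkl* deletion in the founder of the D387A Cflar Mlkl line, and *Mlkl* null zygotes for C362A Cflar Mlkl. The *Mlkl* alleles of the sets may thus differ as well. In the first set, sample titles began with a number that Mlkl and D387A Cflar Mlkl shared and that differed for each other genotype, so whatever it stands for cannot be told apart from those genotypes.

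Enteroendocrine cells are scattered hormone-secreting cells of the gut epithelium. Together with goblet and Paneth cells they descend from secretory progenitors, whereas absorptive enterocytes arise from the other branch. A brief pulse of *Neurog3* commits a progenitor to the endocrine fate and *Neurod1* acts after it. Mature cells store peptide hormones with granins in dense core granules and release them when nutrients reach the gut.

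The 30 libraries held 17943524 to 31052238 reads on genes. A gene was called where its log2 fold change was larger than 1 in either direction and edgeR's quasi-likelihood test gave it an adjusted p under 0.05. All 10 genes had enough reads to be tested in both sets. Levels of the 10 genes are given mostly as RPKM (read counts scaled to TMM library size and divided by the length of the gene), and levels of other genes and summed levels as CPM (read counts scaled to TMM library size, without the length). Of the targeted genes, *Casp1* was at 0 to 0.212 CPM in every embryo labelled as lacking it and at 42.6 CPM or more in the others, and *Fadd* was at 0.659 to 1.01 CPM in its knockout against 25.5 CPM or more. *Ifnar1* was at 33.2 to 37.9 CPM in its knockout against 76.1 CPM or more. *Cflar* and *Mlkl* reads did not separate the labelled genotypes: *Cflar* was at 33.8 to 59.4 CPM in embryos labelled as lacking it against 43.9 to 72.5 CPM, and *Mlkl* at 2.13 to 62.6 CPM against 10.9 to 13.9 CPM in D387A, where it is intact. The counts are per gene and do not show which exons the reads came from, so for these 2 genes the labels could not be checked. The third D387A Cflar Mlkl Casp1 embryo differed from its 2 group mates, with *Mlkl* at 46.1 CPM against 6.27 and 7.46 CPM, and leaving it out raised the number of genes called with *Ifnar1* loss from 975 to 1740. RNA of the pancreas was highest in a few embryos. *Ins1*, an insulin gene, reached 17.1 CPM in the second C362A Cflar Mlkl embryo and 5.40 CPM in the third Mlkl embryo of the D387A set, against 0 to 1.60 CPM in the other 28. That Mlkl embryo also held 23.8 CPM of the stomach gene *Gkn2*, against at most 2.06 CPM elsewhere. All 3 D387A Cflar Mlkl Casp1 Ifnar1 embryos held reads of the pancreatic carboxypeptidase gene *Cpa1*, at 3.01, 7.02 and 6.26 CPM, and the third D387A Cflar Mlkl Casp1 Fadd embryo held 6.72 CPM. The third D387A Cflar Mlkl Casp1 embryo and the *Ins1*-rich pair were each left out in turn. Calls among the 10 members that rest on them are given with and without them, as are members whose adjusted p crossed 0.05 without them. The 3 D387A Cflar Mlkl Casp1 Ifnar1 embryos make up their whole genotype, so no value without pancreatic RNA could be had there.

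*Sct*, which encodes secretin, the hormone that drives bicarbonate secretion by the pancreas, was the most abundant of the 10 genes in every Mlkl embryo, at 144, 170 and 181 RPKM in the D387A set and 130, 166 and 170 RPKM in the C362A set. *Gip*, encoding the incretin of K cells, came next in the D387A set at 60.0 to 68.5 RPKM, and in the C362A set it overlapped with other hormones at 34.2 to 66.6 RPKM. *Pyy* (38.1 to 49.9 RPKM in the D387A set) and *Chgb* (33.7 to 41.6) overlapped, as did *Cck* (25.1 to 34.6), *Gcg* (18.4 to 29.0), *Chga* (22.6 to 26.0) and *Sst* (14.6 to 36.0). The transcription factor genes were far lower, at 1.62 to 1.80 RPKM for *Neurog3* and 0.476 to 0.776 RPKM for *Neurod1*, and their ranges were apart. In these controls *Neurog3* rested on 49 to 55 reads and *Neurod1* on 26 to 42 reads per embryo. In the MEFs, which should lack these cells, *Gip*, *Pyy* and *Neurog3* had 0 reads in all 6 libraries, and the summed CPM of the 10 genes was 1.67 to 3.12 against 292 to 583 in the intestines. *Cck* had the most reads of the 10 genes in 4 of the 6 MEF libraries, at 0.373 to 2.48 RPKM.

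The 3 genes with a called change against Mlkl were *Gip*, *Neurog3* and *Sct*, and their promoters are shown here because *Neurog3* and *Neurod1* belong to the basic helix-loop-helix factors, which bind E-boxes of the form CANNTG. The windows are the 250 bases before the RefSeq start site on GRCm38, read 5′ to 3′ on the strand of the gene, with each CANNTG match in capitals. They lie at chr11:96024295-96024544 on the plus strand for *Gip*, at chr10:62132840-62133089 on the plus strand for *Neurog3*, and at chr7:141279134-141279383 on the minus strand for *Sct*.
Gip: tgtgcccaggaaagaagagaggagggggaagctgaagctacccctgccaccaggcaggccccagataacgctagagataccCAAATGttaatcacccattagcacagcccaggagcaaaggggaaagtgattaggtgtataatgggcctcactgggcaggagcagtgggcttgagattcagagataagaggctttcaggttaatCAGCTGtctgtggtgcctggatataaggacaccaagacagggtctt
Neurog3: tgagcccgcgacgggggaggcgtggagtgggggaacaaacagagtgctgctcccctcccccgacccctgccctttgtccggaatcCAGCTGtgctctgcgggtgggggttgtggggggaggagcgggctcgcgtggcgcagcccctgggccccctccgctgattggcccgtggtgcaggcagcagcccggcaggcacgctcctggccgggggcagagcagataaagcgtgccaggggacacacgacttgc
Sct: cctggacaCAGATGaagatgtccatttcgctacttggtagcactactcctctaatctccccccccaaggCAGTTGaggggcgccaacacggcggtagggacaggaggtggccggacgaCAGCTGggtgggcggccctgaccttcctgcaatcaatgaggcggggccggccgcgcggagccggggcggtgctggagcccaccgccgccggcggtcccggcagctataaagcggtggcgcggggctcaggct
CANNTG reads the same on both strands, and a match occurred in the window of 10 of 10 genes and in 66.2% of all 32817 RefSeq promoter windows of the same length. CAGATG, or CATCTG on the other strand, each a case of CANNTG, occurred in 3 of 10 (*Gcg*, *Cck* and *Sct*) and in 14.5% of all windows. These matches describe the sequences and are not known binding sites here.

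Against Mlkl, the 10 genes behaved individually, and most stayed within a log2 fold change of 1. *Gip* and *Neurog3* fell in D387A Cflar Mlkl, *Neurog3* fell in C362A Mlkl, *Gip* fell in C362A Cflar Mlkl, *Neurog3* fell and *Sct* rose in D387A Cflar Mlkl Casp1 Ifnar1, and *Sct* rose in C362A Mlkl Casp1. No member was called in D387A, D387A Cflar Mlkl Casp1 or D387A Cflar Mlkl Casp1 Fadd. Read counts come from whole intestine, so fewer cells of a type and less RNA per cell cannot be told apart.

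**Figure D1:**
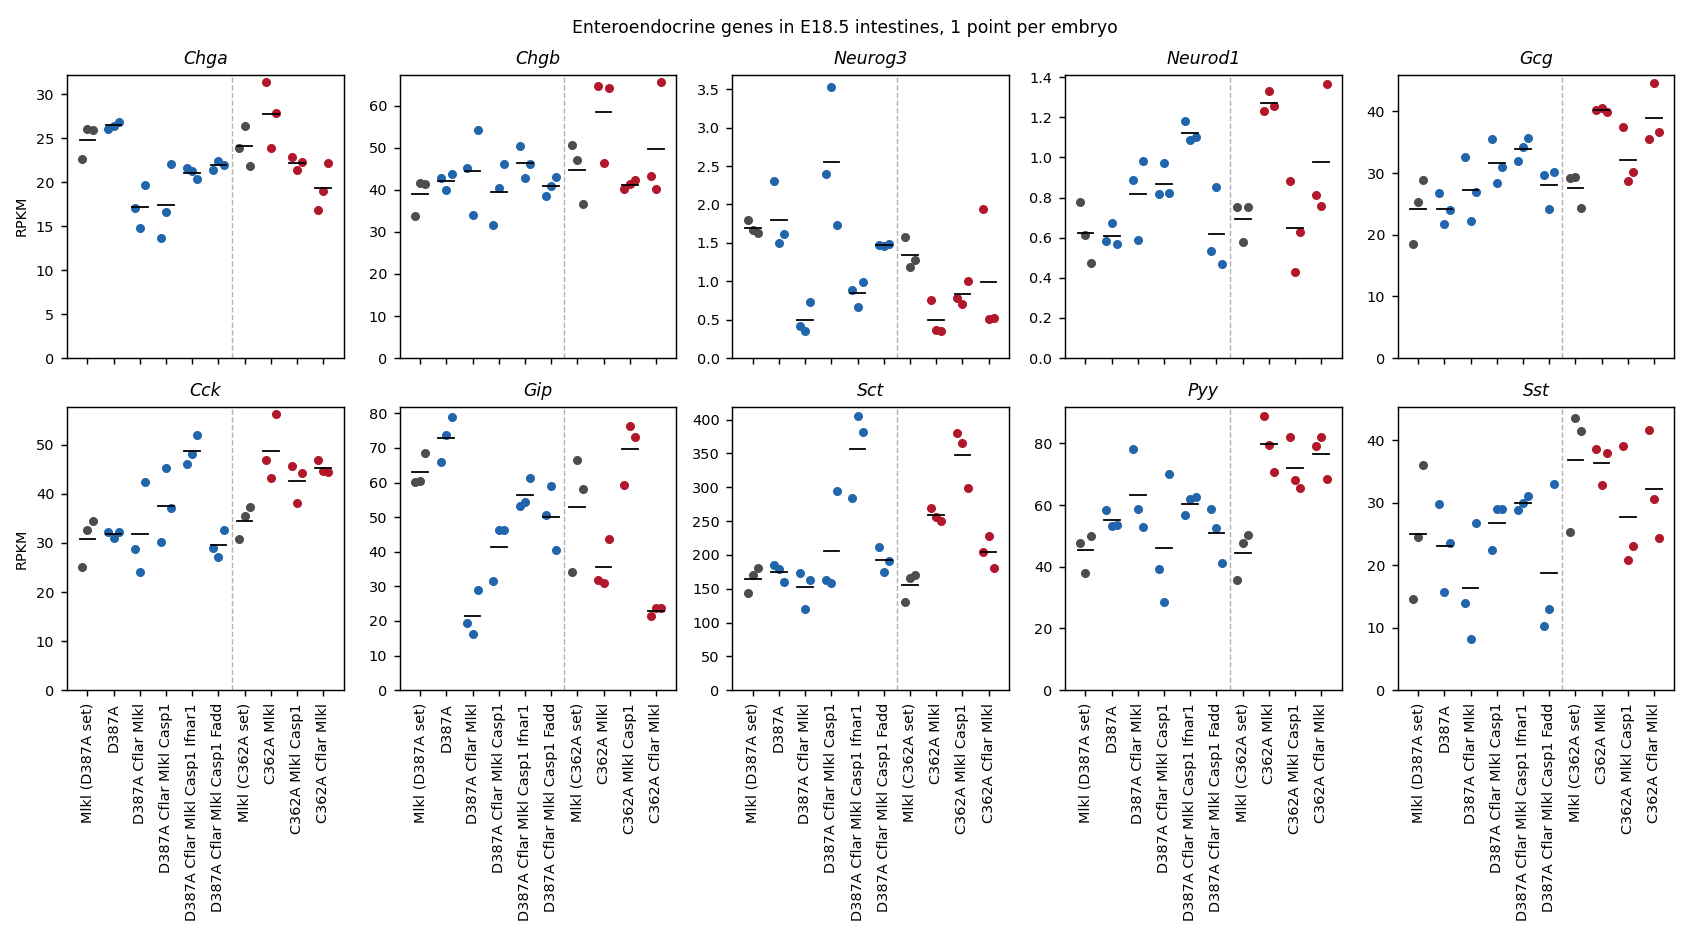
RPKM (linear axes from 0) of the 10 genes in the 30 intestines, with 1 point per embryo and a bar at the mean of each genotype; grey points are Mlkl, blue points the D387A set and red points the C362A set, divided by the dashed line. *Gip* in the 3 D387A Cflar Mlkl embryos sits between 16.3 and 28.9 RPKM, below all 3 Mlkl embryos.

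*Chga*, which encodes the granule protein chromogranin A, was at 22.6, 26.0 and 25.9 RPKM in Mlkl and at 17.1, 14.8 and 19.7 RPKM in D387A Cflar Mlkl. All 3 knockout embryos were below all 3 controls, but the log2 fold change of -0.53 ± 0.13 (SE, n = 3 per group, edgeR adjusted p = 0.00177) was under the size needed for a call. Without the third Mlkl embryo it was -0.50 ± 0.15 (edgeR adjusted p = 0.00798). The D387A Cflar Mlkl Casp1 values were 13.6, 16.6 and 22.1 RPKM, with a log2 fold change of -0.51 ± 0.13 (edgeR adjusted p = 0.0098), and -0.71 ± 0.11 (adjusted p = 0.000206) without the third embryo of that genotype. Leaving out that embryo also took the change of *Chga* with *Ifnar1* loss from 0.27 to 0.48 (edgeR adjusted p = 0.117 and 0.00172) and with *Fadd* loss from 0.33 to 0.53 (edgeR adjusted p = 0.0864 and 0.00135). In C362A Cflar Mlkl the log2 fold change was -0.31 ± 0.13 (edgeR adjusted p = 0.0479), and the ranges of 16.9 to 22.2 RPKM and 21.9 to 26.4 RPKM in Mlkl just overlapped. Without the second C362A Cflar Mlkl embryo it was -0.30 ± 0.15 (edgeR adjusted p = 0.106). *Cflar* loss in C362A Mlkl gave -0.52 ± 0.13 (edgeR adjusted p = 0.0106), with *Chga* at 31.3, 23.9 and 27.9 RPKM in C362A Mlkl and every C362A Cflar Mlkl embryo lower. D387A embryos, at 26.1, 26.4 and 26.9 RPKM, were not below Mlkl.

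*Chgb*, which encodes the granin secretogranin I, was not called in any comparison. Its levels ran from 31.6 to 65.7 RPKM over the 30 embryos, and its log2 fold changes against Mlkl lay between -0.12 and 0.38, the last in C362A Mlkl (64.6, 46.3 and 64.3 RPKM against 50.7, 47.1 and 36.5 in Mlkl). One C362A Cflar Mlkl embryo stood at 65.7 RPKM beside group mates at 43.2 and 40.1 RPKM.

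*Neurog3* had the largest fall of the 10 genes in D387A Cflar Mlkl. Mlkl embryos held 1.80, 1.67 and 1.62 RPKM and D387A Cflar Mlkl embryos 0.421, 0.348 and 0.727 RPKM, the latter resting on 15, 12 and 28 reads. The groups did not overlap, and the log2 fold change was -1.75 ± 0.30 (edgeR adjusted p = 6.96e-05), and -1.78 ± 0.33 (edgeR adjusted p = 0.00026) without the third Mlkl embryo. With *Gip*, it made 2 of 10 members called in that comparison, both lower, where 22.2% of all 18360 genes tested were called and 12.8% were called lower, so the share of members called was near the background. The median log2 fold change was -0.04 over the 10 members and -0.01 over all genes tested. Leaving out the third D387A Cflar Mlkl embryo, the highest of the 3 for *Neurog3* and *Gip*, also brought *Sst* past the threshold (log2 fold change -1.17, edgeR adjusted p = 0.0346).

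*Neurog3* in D387A Cflar Mlkl Casp1 stood at 2.39, 3.53 and 1.73 RPKM. The D387A Cflar Mlkl Casp1 embryos were all above every D387A Cflar Mlkl embryo, with a log2 fold change of 2.34 ± 0.29 for *Casp1* loss (edgeR adjusted p = 4.49e-06) and 2.55 ± 0.27 (edgeR adjusted p = 4.61e-07) without the third embryo. This was 1 of 10 members called, where 13.4% of all genes tested were called and 8.88% were called higher. Against Mlkl, the log2 fold change of 0.59 ± 0.25 did not pass the test (edgeR adjusted p = 0.111). Without the third embryo it was 0.80 ± 0.24 (edgeR adjusted p = 0.031), still under the fold needed for a call.

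Further loss of *Ifnar1* brought lower *Neurog3* values again, at 0.882, 0.659 and 0.988 RPKM, all below every D387A Cflar Mlkl Casp1 embryo and every Mlkl embryo. The log2 fold change with *Ifnar1* loss was -1.60 ± 0.27 (edgeR adjusted p = 0.000739; -1.81 ± 0.25 without the third D387A Cflar Mlkl Casp1 embryo), the sole call among the 10 members where 5.31% of all genes were called and 2.03% were called lower. Against Mlkl it was -1.01 ± 0.28 (edgeR adjusted p = 0.00641), just past the threshold, and -1.04 ± 0.31 (edgeR adjusted p = 0.0142) without the third Mlkl embryo. That call was lost without the first Mlkl embryo (log2 fold change -0.97), without the second D387A Cflar Mlkl Casp1 Ifnar1 embryo (-0.86) and in 3 other settings (-0.83, -0.96 and -0.995). With *Fadd* loss instead, *Neurog3* was at 1.47, 1.46 and 1.48 RPKM. The log2 fold change with *Fadd* loss was -0.80 ± 0.25 (edgeR adjusted p = 0.0377), short of a call, and -1.01 (edgeR adjusted p = 0.00574) without the third D387A Cflar Mlkl Casp1 embryo.

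In the C362A set, *Neurog3* was at 1.58, 1.18 and 1.27 RPKM in Mlkl and at 0.751, 0.370 and 0.352 RPKM in C362A Mlkl, from 32, 16 and 15 reads. All C362A Mlkl embryos were lower, with a log2 fold change of -1.45 ± 0.47 (edgeR adjusted p = 0.0223). It was the only member called there, where 18.0% of all 19408 genes tested were called and 7.55% were called lower. The median log2 fold change was 0.44 over the members and 0.02 over all genes. This call was lost when the first Mlkl embryo (log2 fold change -1.34, edgeR adjusted p = 0.0579), the second C362A Mlkl embryo (-1.28, adjusted p = 0.0867) or the third (-1.26, adjusted p = 0.0879) was left out. C362A Mlkl Casp1 embryos held 0.783, 0.702 and 1.01 RPKM, below all Mlkl embryos, but with a log2 fold change of -0.69 ± 0.45 (edgeR adjusted p = 0.246). In C362A Cflar Mlkl, 2 embryos were low at 0.504 and 0.522 RPKM and the first was high at 1.94 RPKM. The log2 fold change was -0.46 ± 0.44 (edgeR adjusted p = 0.407), and -1.39 ± 0.34 (edgeR adjusted p = 0.00465), past the threshold, without the first embryo. In that embryo *Ins1* was at 0.162 CPM and the pancreatic trypsin gene *Prss2* at 4.73 CPM, against 17.1 and 19.4 CPM in the second embryo and 0 and 1.57 CPM in the third. Their part in the *Neurog3* values was not tested.

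*Neurog3* shares 273 of its 1674 exon bases with *Fam241b* on the opposite strand, and the use of strand in counting is not given in the sources used here, so its reads are uncertain. *Fam241b* was at 24.1 to 26.1 CPM in Mlkl and 12.7 to 16.9 CPM in D387A Cflar Mlkl, a log2 fold change of -0.77 (edgeR adjusted p = 6.15e-05), and it changed by -0.89 in C362A Mlkl (edgeR adjusted p = 0.000428). *Neurog3* itself was at 2.50 to 2.77 CPM in those Mlkl embryos. In D387A Cflar Mlkl Casp1 Ifnar1, *Fam241b* was at 19.1 to 25.3 CPM (log2 fold change -0.18, edgeR adjusted p = 0.259) while *Neurog3* was called lower. What part of the *Neurog3* values came from *Fam241b* was not tested.

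*Neurod1*, the factor that follows *Neurog3* in endocrine differentiation, did not share its falls. It was at 0.776, 0.616 and 0.476 RPKM in Mlkl and at 0.886, 0.590 and 0.981 RPKM in D387A Cflar Mlkl, with overlapping ranges and a log2 fold change of 0.40 ± 0.24 (edgeR adjusted p = 0.164). D387A Cflar Mlkl Casp1 Ifnar1 embryos were all higher at 1.18, 1.09 and 1.10 RPKM. The log2 fold change there was 0.85 ± 0.23 (edgeR adjusted p = 0.00669), under the fold needed for a call, and reached 1.03 without the first Mlkl embryo. C362A Mlkl embryos were at 1.23, 1.33 and 1.26 RPKM, above all Mlkl embryos (0.755, 0.580 and 0.751), with a log2 fold change of 0.88 ± 0.28 (edgeR adjusted p = 0.0193). In the 3 C362A Mlkl embryos *Neurod1* was thus higher and *Neurog3* lower than in every Mlkl embryo. *Neurod1* overlaps *Cerkl* on its own strand and *Gm26755* on the other. *Cerkl* did not exceed 0.398 CPM and *Gm26755* 0.0362 CPM in any intestine, against 1.16 CPM or more for *Neurod1*.

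*Gip*, which encodes the glucose-dependent insulinotropic peptide made by K cells of the upper small intestine, was the only hormone gene of the 10 members called lower. Mlkl embryos of the D387A set held 60.0, 60.6 and 68.5 RPKM and D387A Cflar Mlkl embryos 19.4, 16.3 and 28.9 RPKM, from 309, 250 and 497 reads. The groups were well apart, with a log2 fold change of -1.55 ± 0.19 (edgeR adjusted p = 1.54e-06). Without the Mlkl embryo that held pancreatic and stomach RNA it was -1.48 ± 0.20 (edgeR adjusted p = 1.36e-05). For D387A Cflar Mlkl Casp1, the values of 31.5, 46.2 and 46.4 RPKM lay between those groups. The log2 fold change was -0.61 ± 0.18 against Mlkl (edgeR adjusted p = 0.0231) and 0.94 ± 0.19 against D387A Cflar Mlkl (edgeR adjusted p = 0.000519), both short of a call. The first was -0.54 (edgeR adjusted p = 0.0778) without the third Mlkl embryo, and the second 0.85 (edgeR adjusted p = 0.00171) without the third D387A Cflar Mlkl Casp1 embryo. The change with *Casp1* loss passed the threshold without the third D387A Cflar Mlkl embryo (1.21) or without the first D387A Cflar Mlkl Casp1 embryo (1.10). With loss of *Ifnar1* as well, *Gip* was at 53.3, 54.5 and 61.2 RPKM and with loss of *Fadd* at 50.6, 59.0 and 40.7 RPKM, and neither passed the test against Mlkl (edgeR adjusted p = 0.475 and 0.221). Relative to epithelial genes, *Gip* was below Mlkl without overlap in these genotypes, by 0.62 and 0.63 on the log2 scale. In D387A Cflar Mlkl Casp1 it was below by 0.65, also without overlap. *Ifnar1* loss itself gave 0.45 (edgeR adjusted p = 0.0682), and 0.54 (edgeR adjusted p = 0.0367) without the third D387A Cflar Mlkl Casp1 embryo.

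In the C362A set the lowest *Gip* values were in C362A Cflar Mlkl. Those embryos held 21.5, 23.7 and 23.9 RPKM, below the Mlkl embryos at 34.2, 66.6 and 58.2 RPKM. The log2 fold change was -1.20 ± 0.21 (edgeR adjusted p = 0.000237), the only call among the 10 members where 24.6% of all genes were called and 11.2% were called lower. Without the second C362A Cflar Mlkl embryo, the one with 17.1 CPM of *Ins1*, it was -1.23 ± 0.25 (edgeR adjusted p = 0.00126). Without the second Mlkl embryo it was -0.99 (edgeR adjusted p = 0.00236), just short of a call. C362A Mlkl embryos were at 31.8, 30.8 and 43.8 RPKM, overlapping with Mlkl, with a log2 fold change of -0.58 ± 0.21 (edgeR adjusted p = 0.0349). *Cflar* loss in C362A Mlkl gave -0.62 ± 0.21 (edgeR adjusted p = 0.0501), with the groups apart. C362A Mlkl Casp1 embryos were at 59.3, 76.2 and 73.3 RPKM, all above C362A Mlkl. The change with *Casp1* loss was 0.97 ± 0.21 (edgeR adjusted p = 0.00249), under the fold needed, and 1.15 without the third C362A Mlkl embryo or 1.07 without the first C362A Mlkl Casp1 embryo.

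The change of *Gip* was -1.55 in D387A Cflar Mlkl and -1.20 in C362A Cflar Mlkl, and their difference of -0.34 ± 0.29 did not pass the test (edgeR adjusted p = 0.525). For *Neurog3* the difference was -1.30 ± 0.55 (edgeR adjusted p = 0.181). It was -0.37 (edgeR adjusted p = 0.722) without the first C362A Cflar Mlkl embryo, the high one, -1.61 (adjusted p = 0.221) without the second and -1.60 (adjusted p = 0.0429) without the third. Differences between sets come from 1 fit over all 30 intestines, so they can depart slightly from the difference of the per-set values. None of the 10 members was called in this comparison of sets, where 0.0764% of all 19643 genes tested were called, and 1 had an unadjusted p under 0.05, as did 20.6% of all genes. limma-voom called none either.

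*Sct* was called higher against Mlkl in 2 of the 4 genotypes without *Casp1*. In D387A Cflar Mlkl Casp1 Ifnar1 it was at 284, 405 and 382 RPKM against 144, 170 and 181 RPKM in Mlkl, with no overlap and a log2 fold change of 1.11 ± 0.20 (edgeR adjusted p = 0.000261), and 1.18 ± 0.24 (edgeR adjusted p = 0.000915) without the third Mlkl embryo. Pancreatic acinar genes were at 62.9 to 151 CPM in these embryos, and their part in the *Sct* values was not tested. With *Neurog3* it made 2 of 10 members called, where 12.4% of all genes were called, 5.64% lower and 6.76% higher. The median log2 fold change was 0.34 over the members and -0.0029 over all genes tested. In C362A Mlkl Casp1 it was at 380, 365 and 299 RPKM against 130, 166 and 170 RPKM in Mlkl, with a log2 fold change of 1.17 ± 0.13 (edgeR adjusted p = 1.78e-05), the only call where 10.5% of all genes were called and 6.79% were called higher. C362A Mlkl embryos were in between at 269, 256 and 250 RPKM, all above Mlkl, with a log2 fold change of 0.74 ± 0.13 (edgeR adjusted p = 0.000446). *Casp1* loss itself changed *Sct* by 0.43 ± 0.13 in C362A Mlkl (edgeR adjusted p = 0.0226), under the fold needed. D387A Cflar Mlkl Casp1 Fadd embryos, at 212, 175 and 191 RPKM, overlapped with Mlkl (log2 fold change 0.22 ± 0.20, edgeR adjusted p = 0.495). Epithelial genes were higher in both genotypes with an *Sct* call, at 7284 to 7633 CPM against 5086 to 5743 CPM in D387A Cflar Mlkl Casp1 Ifnar1 and 7186 to 7624 CPM against 4655 to 5460 CPM in C362A Mlkl Casp1. Relative to them *Sct* was higher than in Mlkl by 0.65 and 0.63 on the log2 scale, without overlap. The share of all genes without overlap by this ratio was not computed for these genotypes. D387A Cflar Mlkl embryos, at 173, 120 and 163 RPKM, overlapped with Mlkl (log2 fold change -0.12 ± 0.20, edgeR adjusted p = 0.634). In C362A Cflar Mlkl the log2 fold change was 0.40 ± 0.13 (edgeR adjusted p = 0.0215), and 0.31 ± 0.14 (edgeR adjusted p = 0.0917) without the second embryo of that genotype.

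*Sct* in D387A Cflar Mlkl Casp1 was at 163, 158 and 294 RPKM. The third embryo was in the range of D387A Cflar Mlkl Casp1 Ifnar1 and the others were in that of Mlkl. Loss of *Ifnar1* changed *Sct* by 0.80 ± 0.20 (edgeR adjusted p = 0.00739), under the fold needed, and by 1.15 (edgeR adjusted p = 2.05e-05), past it, without that embryo. Against Mlkl the log2 fold change in D387A Cflar Mlkl Casp1 was 0.31 with and -0.04 without it, neither past the test.

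**Figure D2:**
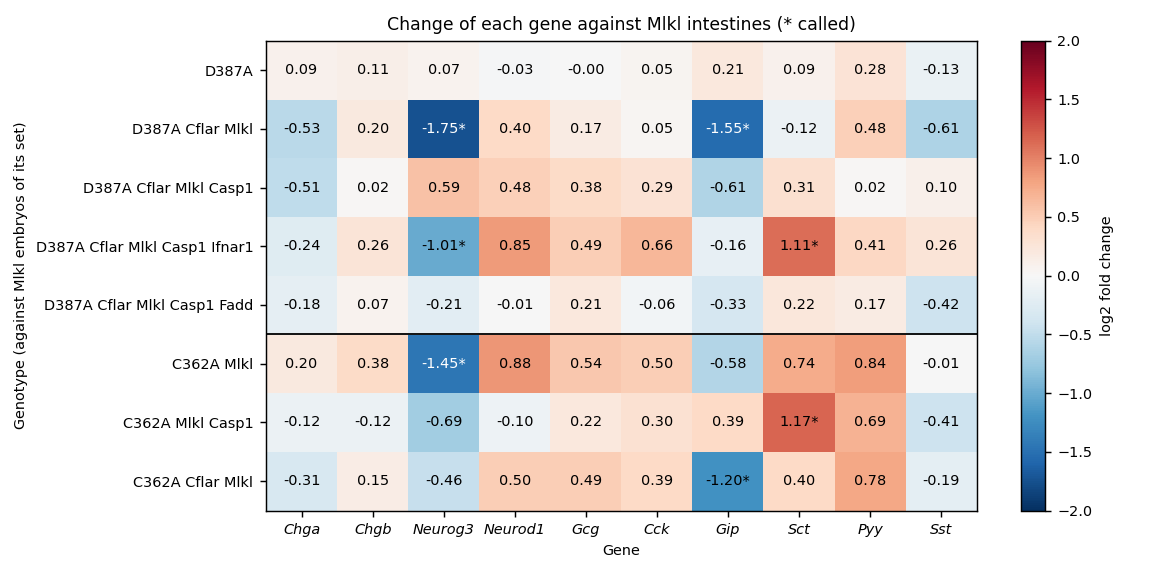
Log2 fold change of the 10 genes in 8 genotypes against the Mlkl embryos of their set (colour and printed value; columns are genes, rows genotypes, the line divides the sets); an asterisk marks a call. Asterisks stand at *Gip*, *Neurog3* and *Sct* only, with *Neurog3* in D387A Cflar Mlkl lowest at -1.75.

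*Pyy*, which encodes peptide YY of L cells, a hormone that slows gut transit and curbs appetite, was raised in the C362A set without reaching the fold needed. Mlkl embryos held 35.8, 47.6 and 50.3 RPKM, C362A Mlkl embryos 88.9, 79.4 and 70.7 RPKM, C362A Mlkl Casp1 embryos 82.0, 68.0 and 65.7 RPKM and C362A Cflar Mlkl embryos 79.2, 82.0 and 68.4 RPKM. By RPKM, none of these knock-in embryos overlapped with Mlkl. The log2 fold changes were 0.84 ± 0.14, 0.69 ± 0.14 and 0.78 ± 0.14 (edgeR adjusted p = 0.000257, 0.00202 and 0.000344). Relative to epithelial genes, *Pyy* was above Mlkl by 0.37, 0.16 and 0.61 on the log2 scale, and each of the 3 genotypes overlapped with Mlkl by that ratio. In the D387A set *Pyy* passed no test against Mlkl, although D387A Cflar Mlkl embryos at 78.1, 58.6 and 53.0 RPKM, D387A embryos at 58.3, 53.2 and 53.6 RPKM and D387A Cflar Mlkl Casp1 Ifnar1 embryos at 56.6, 61.9 and 62.6 RPKM were all above the Mlkl range of 38.1 to 49.9 RPKM. The third D387A Cflar Mlkl Casp1 embryo again stood apart, at 70.1 RPKM beside 39.4 and 28.5 RPKM. *Casp1* loss changed *Pyy* by -0.46 ± 0.23 (edgeR adjusted p = 0.11) with it and by -0.90 ± 0.17 (edgeR adjusted p = 0.000354) without it. *Ifnar1* loss gave 0.39 (edgeR adjusted p = 0.205) with and 0.83 (edgeR adjusted p = 0.00107) without that embryo, and *Fadd* loss 0.15 (edgeR adjusted p = 0.713) and 0.58 (edgeR adjusted p = 0.0217).

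*Gcg*, whose product is processed to the glucagon-like peptides in L cells, was at 18.4, 25.3 and 29.0 RPKM in Mlkl and at 32.5, 22.3 and 27.0 RPKM in D387A Cflar Mlkl, which overlapped (log2 fold change 0.17 ± 0.15, edgeR adjusted p = 0.359). In D387A Cflar Mlkl Casp1 it was 0.38 (edgeR adjusted p = 0.0872), and 0.53 (edgeR adjusted p = 0.0373) without the third Mlkl embryo. D387A Cflar Mlkl Casp1 Ifnar1 embryos, at 32.0, 34.2 and 35.7 RPKM, were all above Mlkl, with a log2 fold change of 0.49 ± 0.15 (edgeR adjusted p = 0.0153), and 0.63 ± 0.16 (edgeR adjusted p = 0.00591) without that Mlkl embryo. Relative to epithelial genes, *Gcg* in that genotype was above Mlkl by 0.05 on the log2 scale, with overlap. It was higher in C362A Mlkl at 40.3, 40.6 and 39.9 RPKM against 29.2, 29.4 and 24.3 RPKM in Mlkl, with a log2 fold change of 0.54 ± 0.13 (edgeR adjusted p = 0.00309), under the fold needed. C362A Cflar Mlkl embryos were at 35.5, 44.7 and 36.7 RPKM, with a log2 fold change of 0.49 ± 0.13 (edgeR adjusted p = 0.00451). *Gcg* is also the glucagon gene of pancreatic islets, and the embryo at 44.7 RPKM was the one with 17.1 CPM of *Ins1*. Without it the log2 fold change was 0.38 ± 0.13 (edgeR adjusted p = 0.0278).

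*Cck*, encoding the I cell hormone that contracts the gallbladder, followed a similar course. It was at 46.8, 43.2 and 56.2 RPKM in C362A Mlkl against 30.8, 35.6 and 37.3 RPKM in Mlkl (log2 fold change 0.50 ± 0.12, edgeR adjusted p = 0.00339). For D387A Cflar Mlkl Casp1 Ifnar1 it was at 46.1, 48.1 and 51.9 RPKM against 25.1, 32.7 and 34.6 RPKM (0.66 ± 0.17, edgeR adjusted p = 0.00453). Both were under the fold needed. Relative to epithelial genes, *Cck* was above Mlkl by 0.02 and 0.22 on the log2 scale in these genotypes, with overlap in both. D387A Cflar Mlkl embryos at 28.8, 24.1 and 42.3 RPKM spanned the Mlkl range.

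*Sst*, encoding somatostatin of D cells, which restrains the release of the other hormones, passed the test in no comparison with all embryos. Mlkl embryos of the D387A set held 14.6, 24.5 and 36.0 RPKM and D387A Cflar Mlkl embryos 14.0, 8.13 and 26.7 RPKM (log2 fold change -0.61 ± 0.42, edgeR adjusted p = 0.225). Islets and stomach also make somatostatin, and the control embryo at 36.0 RPKM was the one with *Ins1* and *Gkn2* reads. Without it the log2 fold change was -0.26 ± 0.46 (edgeR adjusted p = 0.661). The D387A Cflar Mlkl embryo at 26.7 RPKM also held the most *Cpa1* of its genotype (2.28 CPM). Without that embryo the log2 fold change was -1.17 (edgeR adjusted p = 0.0346). In D387A Cflar Mlkl Casp1 Fadd, the third embryo held 32.9 RPKM of *Sst* beside 10.2 and 12.9 RPKM, and the most *Cpa1* (6.72 CPM). Over the 30 intestines *Sst* ran from 8.13 to 43.6 RPKM.

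*Casp1* loss was tested in both sets. In the D387A Cflar Mlkl background, *Neurog3* was called as given above. In the C362A Mlkl background none of the 10 members was called, where 11.3% of all genes were called, and 6 had an unadjusted p under 0.05 against 43.5% of all genes, and limma-voom called *Neurod1*. *Neurod1* stood at 1.23, 1.33 and 1.26 RPKM in C362A Mlkl and at 0.883, 0.427 and 0.629 RPKM in C362A Mlkl Casp1, a change of -0.98 ± 0.28 (edgeR adjusted p = 0.0152). All 3 embryos without *Casp1* were lower. In the D387A background it was at 0.886, 0.590 and 0.981 RPKM with *Casp1* and at 0.816, 0.972 and 0.821 RPKM without, a change of 0.08 ± 0.23 (edgeR adjusted p = 0.791).

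The difference between the sets in the change of *Neurod1* with *Casp1* loss was 1.08 ± 0.36 (edgeR adjusted p = 0.0394), the sole call among the 10 members where 5.73% of all genes were called and 4.90% were called higher. The comparison spans genotypes that differ in *Cflar* as well as in the *Casp8* allele. The call was lost when any 1 of 9 of the 12 embryos was left out, with differences of 0.86 to 1.14 and edgeR adjusted p of 0.0516 to 0.116. It held without the third D387A Cflar Mlkl Casp1 embryo (1.13, edgeR adjusted p = 0.0369). For *Neurog3* the difference was 1.61 ± 0.57 (edgeR adjusted p = 0.054), and 1.82 (adjusted p = 0.0245) without the third D387A Cflar Mlkl Casp1 embryo or 1.99 (adjusted p = 0.0334) without the third D387A Cflar Mlkl embryo. Without the latter *Sst* also passed the threshold, at 1.69 (adjusted p = 0.0371). For *Pyy* the difference was -0.29 (edgeR adjusted p = 0.517), and -0.72 (adjusted p = 0.0316) without the third D387A Cflar Mlkl Casp1 embryo. For *Gip* the changes were 0.94 and 0.97 and their difference was -0.01 ± 0.30 (edgeR adjusted p = 0.989).

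**Figure D3:**
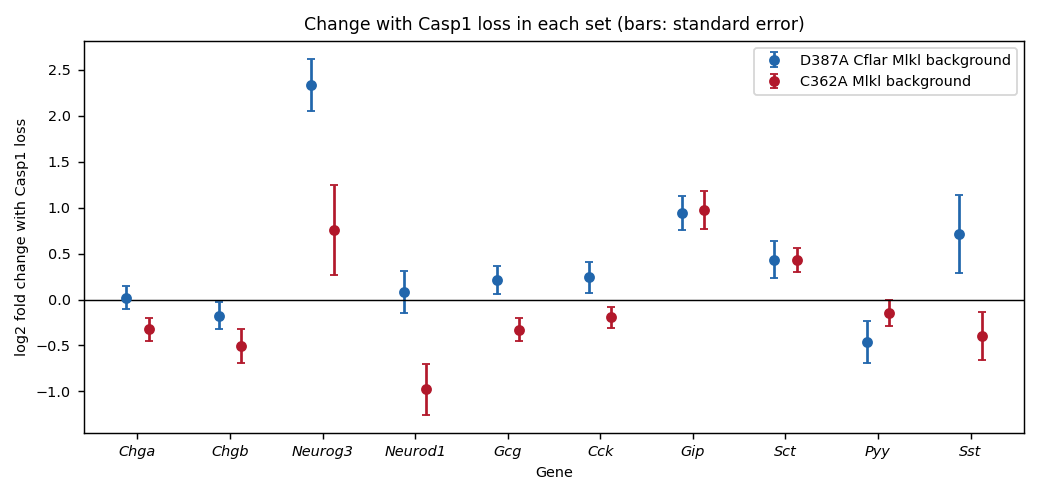
Log2 fold change of the 10 genes with *Casp1* loss (y axis) in the D387A Cflar Mlkl background (blue) and the C362A Mlkl background (red), with bars of 1 standard error. The fits had 3 embryos per genotype and shared an estimate of spread over all genotypes of a set. *Neurog3* is highest in the D387A background at 2.34, and *Neurod1*, the one called difference between the sets, is at 0.08 and -0.98.

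For the remaining comparisons the members gave few calls. In D387A against Mlkl no member was called and none had an unadjusted p under 0.05, with 0.00545% of all genes called (1 gene) and 5.02% at that unadjusted p. Against Mlkl, D387A Cflar Mlkl Casp1 had no member called and 4 with an unadjusted p under 0.05, with 4.34% of all genes called and 33.9% at that p. In D387A Cflar Mlkl Casp1 Fadd against Mlkl no member was called and none had an unadjusted p under 0.05, with 3.78% of all genes called and 31.1% at that p. *Fadd* loss in D387A Cflar Mlkl Casp1 called none, 2 had an unadjusted p under 0.05, and over all genes 3.44% were called and 31.6% had such a p. *Cflar* loss in C362A Mlkl called none, 3 had an unadjusted p under 0.05, and over all genes 6.06% were called and 32.4% had such a p. limma-voom and DESeq2 called no member in these 5 comparisons.

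The summed level of the 10 genes overlapped with Mlkl in D387A Cflar Mlkl, while genes of absorptive enterocytes fell there. The 10 genes summed to 292 to 424 CPM against 346 to 434 CPM in Mlkl. A list of 12 absorptive enterocyte genes summed to 2868 to 5365 CPM against 50685 to 58268 CPM, and all 12 were called lower, among them *Lct*, the lactase gene (log2 fold change -8.54), the fatty acid binding protein genes *Fabp1* (-7.51) and *Fabp2* (-5.87), and *Apoc3*, an apolipoprotein gene (-5.55). A list of 12 general epithelial genes summed to 6243 to 6825 CPM against 5086 to 5743 CPM, with 2 called higher (*Krt19* at 1.18 and *Krt8* at 1.08) and 0 lower. Of 7 goblet cell genes, 5 were called higher, led by the secreted lectin gene *Zg16* (2.17) and the mucin gene *Muc2* (1.78). Of all genes tested, 22.2% were called in D387A Cflar Mlkl (12.8% called lower) and 18.0% in C362A Mlkl (7.55% called lower). In C362A Mlkl, 9 of the 12 enterocyte genes were called lower and 4 of 7 goblet cell genes higher, and the 10 genes summed to 498 to 583 CPM against 386 to 446 CPM in Mlkl. The epithelial genes were also higher there, at 6298 to 7767 CPM against 4655 to 5460 CPM.

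**Figure D4:**
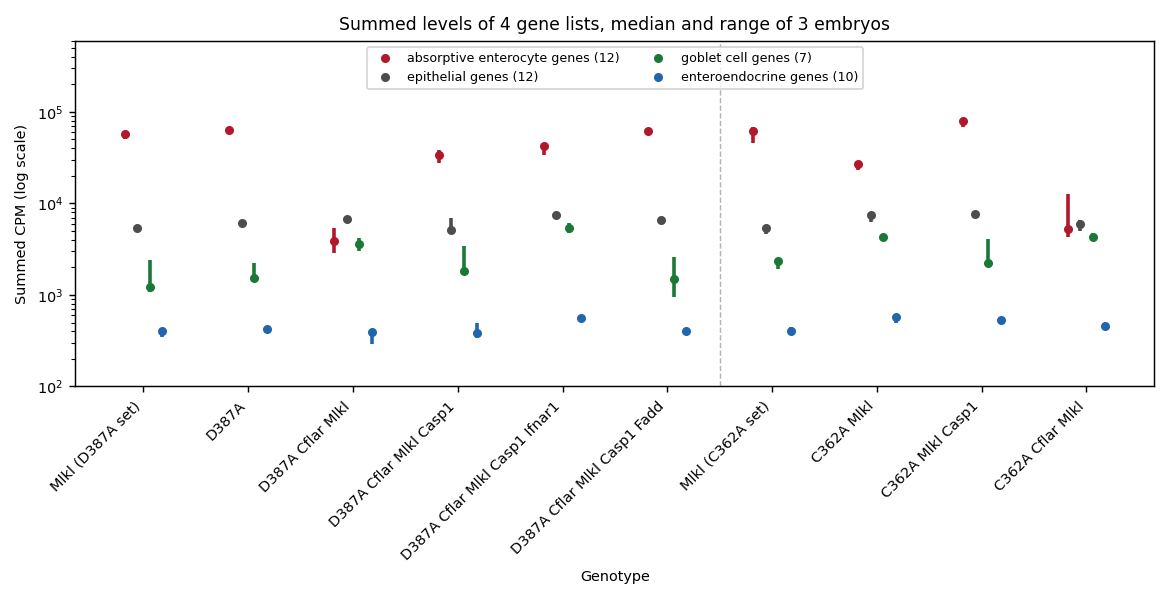
Summed CPM (log axis) of the 10 enteroendocrine genes, 7 goblet cell genes, 12 epithelial genes and 12 absorptive enterocyte genes in each genotype, with points at the median and lines over the range of 3 embryos. The enterocyte sum is 2868 to 5365 CPM in D387A Cflar Mlkl against 50685 to 58268 CPM in Mlkl, while the enteroendocrine sum stays at 292 to 424 CPM.

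Relative to the epithelial genes, the log2 ratio of *Gip* was lower in D387A Cflar Mlkl than in Mlkl by 1.87, that of *Neurog3* by 2.09 and that of *Chga* by 0.82, with no overlap between the embryos of the genotypes. The other 7 members overlapped, whereas 66.5% of all genes tested did not overlap by this ratio. Relative to the absorptive enterocyte genes, all 10 members were higher in every D387A Cflar Mlkl embryo, as were 97.1% of all genes tested, with log2 ratios 2.02 (*Neurog3*) to 4.30 (*Pyy*) above Mlkl. In C362A Cflar Mlkl they were 1.99 (*Gip*) to 3.93 (*Pyy*) above, where 95.0% of all genes tested were higher in every embryo. In C362A Mlkl the log2 ratios to epithelial genes of *Neurog3*, *Gip* and *Chga* were lower than in Mlkl by 1.98, 1.01 and 0.27 on average, without overlap, whereas 60.8% of all genes tested did not overlap. The other 7 members overlapped, among them *Gcg*, *Cck*, *Sct* and *Pyy*, which were above Mlkl by 0.076, 0.021, 0.27 and 0.37. In C362A Mlkl Casp1, *Neurog3*, *Chga*, *Chgb* and *Gcg* were lower without overlap, by 1.23, 0.65, 0.64 and 0.32. The *Chga* ratio was also lower without overlap in C362A Cflar Mlkl (by 0.49) and D387A Cflar Mlkl Casp1 (0.56), and with further *Ifnar1* loss (0.69) or *Fadd* loss (0.47). In D387A it overlapped with Mlkl. For these further genotypes the share of all genes without overlap was not computed. These ratios describe the mixture of transcripts and were given no test.

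Other genes of the lineage showed a similar mix. Of 17 further transcription factors of enteroendocrine cells, *Pax4*, which acts early in the lineage, was called lower in D387A Cflar Mlkl (log2 fold change -2.85, at 0.0826 CPM against 0.648 CPM on average), *Foxa1* was called higher (1.15) and 15 were not called. Over all genes tested, 22.2% were called in D387A Cflar Mlkl, 18.0% in C362A Mlkl and 24.6% in C362A Cflar Mlkl. The median log2 fold change of the list in D387A Cflar Mlkl was -0.40. In C362A Mlkl none of the 17 was called and 4 had an unadjusted p under 0.05 (49.4% of all genes did), and in C362A Cflar Mlkl *Etv1*, *Fev* and *Pax4* were called lower (-1.08, -1.19 and -1.36). Of 10 other hormone and amine genes tested, 3 were called higher in D387A Cflar Mlkl (*Cartpt* at 2.48, *Tac1* at 1.52 and *Iapp* at 1.35) and 2 lower (*Insl5* at -1.70 and *Ddc* at -1.54). In C362A Mlkl *Iapp* (1.89), *Cartpt* (1.68), *Tac1* (1.37) and *Tph1* (1.11) were higher and *Ddc* (-1.77) and *Ucn3* (-1.32) lower. *Cartpt*, *Tac1* and *Iapp* encode peptides that neurons or islet cells also make. Of 12 enteric neuron genes only *Vip* was called in both genotypes, higher by 2.30 and 1.53.

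Of 14 genes for granule and prohormone processing, which include the convertase genes *Pcsk1* and *Pcsk2*, only *Vgf* was called in D387A Cflar Mlkl and C362A Mlkl, higher by 1.92 and 1.03. Among 13 receptors of gut hormones tested, *Gcgr* (-2.07), *Cckar* (-1.83), *Sctr* (-1.56) and *Gipr* (-1.13) were called lower in D387A Cflar Mlkl and none higher. These are the receptors for glucagon, cholecystokinin, secretin and the *Gip* product. Of all genes tested, 22.2% were called in D387A Cflar Mlkl (12.8% called lower) and 18.0% in C362A Mlkl (7.55% called lower). In C362A Mlkl *Cckar* was lower (-1.45) and the somatostatin receptor gene *Sstr5* higher (1.09). Of 7 nutrient sensors tested in the D387A set, the fatty acid receptor gene *Ffar4* (3.38) and the bile acid receptor gene *Gpbar1* (1.74) were higher in D387A Cflar Mlkl, and both were higher in C362A Mlkl too (2.30 and 1.04). Of 10 genes of Notch signalling and secretory fate, *Spdef* (1.01) was the only call in D387A Cflar Mlkl, and C362A Mlkl had none of 9, with 6 at an unadjusted p under 0.05.

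Genes that differ along the gut also changed. Of 5 duodenum and jejunum genes, *Fabp1*, *Slc40a1* (-1.54) and *Gata4* (-1.07) were called lower in D387A Cflar Mlkl, where 12.8% of all genes tested were. The summed level of the 5 genes was 329 to 406 CPM there against 4473 to 4733 CPM in Mlkl. It was 444 to 566 CPM in C362A Cflar Mlkl, where *Gip* was also called lower, and 912 to 1222 CPM in C362A Mlkl, where it was not, against 4259 to 6758 CPM in Mlkl of that set. It was also below Mlkl where *Gip* passed no test, at 1531 to 1768 CPM in D387A Cflar Mlkl Casp1 Ifnar1 and 3629 to 3678 CPM in D387A Cflar Mlkl Casp1 Fadd. In D387A Cflar Mlkl Casp1 it was 2113 to 3304 CPM, and *Gip* changed there by -0.61 against Mlkl (edgeR adjusted p = 0.0231), short of a call. Relative to epithelial genes, *Gip* was lower than in Mlkl in each of these genotypes, as given above. *Fabp1* is also in the enterocyte list and fell far more in D387A Cflar Mlkl than *Slc40a1* and *Gata4*, as given above. The sum can thus not tell a change along the gut apart from the fall of enterocyte genes. The summed level of 9 ileum and colon genes was 273 to 397 CPM in D387A Cflar Mlkl Casp1 Ifnar1 against 65.0 to 88.5 CPM in Mlkl, and 150 to 249 CPM in C362A Mlkl Casp1 against 46.2 to 58.5 CPM, the genotypes where *Sct* was called higher. It was also above Mlkl where *Sct* was not called, at 105 to 161 CPM in D387A, 105 to 139 CPM in D387A Cflar Mlkl Casp1 Fadd, 139 to 153 CPM in C362A Mlkl and 71.5 to 83.0 CPM in C362A Cflar Mlkl. Among them *Fabp6*, *Slc10a2*, *Car1* and *Car4* were called higher in D387A Cflar Mlkl Casp1 Ifnar1 (2.94, 1.90, 1.94 and 3.62). The part of these changes in the *Gip* and *Sct* results was not tested.

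The 10 pancreatic islet genes listed summed to 30.0 to 49.4 CPM in D387A Cflar Mlkl against 316 to 334 CPM in Mlkl, where *Slc2a2*, a glucose transporter gene that enterocytes also use, was called lower by -9.48. *Iapp*, also in this list, was called higher as given above. *Ins1* was at 0.939 to 1.60 CPM and *Ins2* at 0.715 to 2.20 CPM in D387A Cflar Mlkl, against 0.252, 0.0525 and 5.40 CPM and 0.151, 0.0525 and 5.15 CPM in the Mlkl embryos, of which 2 were lower and the third higher for both genes. Pancreatic acinar genes summed to 6.35 to 22.0 CPM in D387A Cflar Mlkl, 37.5 to 84.6 CPM in Mlkl and 62.9 to 151 CPM in D387A Cflar Mlkl Casp1 Ifnar1, and stomach genes to 3.93 to 19.9 CPM, 2.78 to 211 CPM and 36.6 to 55.8 CPM. Their part in the enteroendocrine values was not tested beyond the results given without the 2 embryos named above.

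The genes whose changes lay nearest to those of 5 members were found over the 8 comparisons with Mlkl among 14431 genes, by the root mean square difference of log2 fold changes. They were *Fbxl22* for *Chga* (0.11), *Ppp1r16b* for *Neurod1* (0.15), *Ikzf5* for *Gcg* (0.07) and *Fam189a1* for *Sst* (0.15). For *Neurog3* the nearest were *Mamdc2* (0.38) and the cholecystokinin receptor gene *Cckar* (0.39), and no gene lay within 0.25, whereas 8.24% of genes did for *Gcg*. The comparisons share control embryos within a set, so these distances are a description with no test.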

How the data were processed

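RNA sequencing of 30 E18.5 mouse intestines and 6 MEF libraries was analysed. Reads had been mapped by the authors with GSNAP (genome GRCm38), and those with a single best position were counted. For each gene they deposited a raw read count, a width and an RPKM value. Labels and paper name different library kits, and whether counting used strand is not given in the sources used here. The deposited counts were fitted per set with edgeR 4.0.16 (R 4.3.3) after filterByExpr (minimum count 10, minimum total 15), with TMM scaling, a prior count of 0.125 and Benjamini-Hochberg adjustment over all genes tested. Differences between sets were tested in 1 such fit over all 30 intestines. Standard errors (±) of edgeR results were derived from the log2 fold change and the F statistic. They draw on the spread in all libraries of a fit, so they do not measure the spread of the groups compared alone. The pipeline was tested on simulated data. CPM and RPKM given here were computed from counts, TMM sizes and deposited widths, and the deposited RPKM served only to derive an alternative library total. limma 3.58.1 and DESeq2 1.42.0 were alternatives. Of 52636 gene identifiers, 52403 matched GENCODE M21. Replicates were separate embryos. The 2 Mlkl groups were assigned to sets by their titles. The members, gene lists and comparisons were chosen with earlier results of these data known. From each further list, at most the 4 largest called changes in D387A Cflar Mlkl and in C362A Mlkl were to be named, with the nearest genes of 5 members by change, and other names were added after their values were seen. Promoters were taken from RefSeq, and all 10 members matched. A called gene of the islet list is not reported here.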

Additional observations from a re-analysis of the deposited data

Results flagged for a closer look

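The change of *Neurod1* with *Casp1* loss differed between the sets by 1.08 on the log2 scale (edgeR adjusted p = 0.0394) in a fit over all 30 intestines. Fitted per set, it was 0.08 in the D387A Cflar Mlkl background and -0.98 in the C362A Mlkl background. A test of the difference itself flagged it, and leaving out any 1 of 9 of the 12 embryos removed the call.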

How the results depend on the processing

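The counts of members called were stable in most settings, and no member with an adjusted p under 0.05 changed direction in any of them. With a mean of at least 50 reads, *Neurog3* was not tested in the D387A or C362A set, so the count became 1 in D387A Cflar Mlkl, 0 in C362A Mlkl, 0 for *Casp1* loss in D387A Cflar Mlkl, 0 for *Ifnar1* loss and 1 in D387A Cflar Mlkl Casp1 Ifnar1. In the last comparison the count was also 1 with a prior count of 2, with only the groups compared and with both Mlkl groups pooled, as *Neurog3* fell short. limma-voom gave 1 for *Casp1* loss in C362A Mlkl.

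Deviations of embryos sharing a replicate number correlated at -0.278 to 0.221 in the D387A set and -0.438 to 0.291 in the C362A set. Their medians were -0.00811 and -0.0574, against 0.00203 and 0.0445 for other pairs. With so few embryos per genotype, these values cannot show whether the numbers pair the samples. The paper describes *Mlkl* null embryos as littermates of D387A Cflar Mlkl, C362A Mlkl and C362A Cflar Mlkl embryos. Which embryos shared a litter is not given in the sources used here. With a replicate block, 1 member was called for *Casp1* loss in C362A Mlkl, 2 were called in the difference between sets with *Casp1* loss, and the other counts were as without the block.

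Leaving out 1 embryo at a time gave 0 to 2 members called in C362A Cflar Mlkl, 0 to 1 in C362A Mlkl, 0 to 2 for *Casp1* loss in C362A Mlkl, 1 to 3 for *Casp1* loss in D387A Cflar Mlkl, 1 to 2 in D387A Cflar Mlkl Casp1 Ifnar1, 0 to 1 for *Fadd* loss, 1 to 2 for *Ifnar1* loss, 0 to 1 for the difference between sets without *Cflar* and 0 to 3 for the difference with *Casp1* loss. The number of members higher in every D387A Cflar Mlkl embryo than in every Mlkl embryo was 0 relative to epithelial genes and 10 relative to absorptive enterocyte genes, where 97.1% of all genes tested were higher. With the library total behind the deposited RPKM, 100 mean levels became 0.707 to 0.989 of their value, and 56 of them moved by over 1 SD. Over all genes, D387A against Mlkl gave 1 call, and 3 by DESeq2 or with pooled Mlkl groups, 14 with no filter and 7 with only the groups compared. A mean of at least 50 reads lowered the calls from 796 to 524 in D387A Cflar Mlkl Casp1, from 2278 to 1454 in D387A Cflar Mlkl Casp1 Ifnar1, from 2459 to 1581 for *Casp1* loss in D387A Cflar Mlkl and from 975 to 573 for *Ifnar1* loss. Only the groups compared gave 456 in D387A Cflar Mlkl Casp1, 411 for *Ifnar1* loss and 322 instead of 631 for *Fadd* loss. *Ifnar1* loss gave 582 to 1740 without 1 embryo, and the difference between sets without *Cflar* gave 15 calls, 7 by limma-voom and 0 to 645 without 1 embryo. The causes were not tested. With 12 to 121 reads per embryo, *Neurog3* and *Neurod1* rest on the fewest reads of the members, and *Sst* had the largest standard error in D387A Cflar Mlkl against Mlkl (0.42).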
